A study of Bos taurus with 3 samples.

Results

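The genes described here encode the proteasome, the protease that degrades ubiquitin-tagged proteins in every cell. They were chosen by symbol, as all genes named PSMA to PSMG followed by a digit, which gave 40 of the 9154 genes in the gene tables. All 40 were listed in all 3 libraries, with between 6 and 1227 tags, and no filter on low values was applied to them. They comprise 7 subunits of the core alpha ring, 10 of the core beta ring, 5 ATPases and 2 other subunits of the base, 7 lid subunits, 3 activators or regulators and 6 assembly chaperones. PSMC3, PSMD2, PSMD8, PSME3, PSME4, PSMG4 and 4 further symbols of the same form were not analysed here.

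The tissue was mammary gland of Holstein cows, all in their second parity, sampled in the dry period about 35 days before calving (−35 d), about 7 days before calving (−7 d) and 3 days after calving (+3 d). Different cows were sampled at each time, 6 per group, and the tissue of each group was pooled before RNA was isolated, so each time point is 1 library and the spread between cows is unknown. Digital gene expression counts short tags next to NlaIII sites of the transcripts, and a level is given in TPM, the tags of a gene per 1000000 clean tags. The libraries held 5914422, 5593237 and 5845821 clean tags at −35 d, −7 d and +3 d, and the median listed gene had 82, 72 and 61 tags. TPM here is not divided by transcript length. A transcript with several such sites can give more than 1 tag, and capture and unambiguous matching can differ between genes, so each gene is compared with itself. Stage I of lactogenesis is the step from −35 d to −7 d and stage II the step from −7 d to +3 d. Both stages share the −7 d library, and the comparison of +3 d with −35 d reuses both of its libraries, so these comparisons are not independent.

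The core particle of the proteasome is a barrel of alpha rings that gate entry and beta rings that carry the proteolytic sites. A regulatory particle docks on the alpha rings. Its base holds a ring of ATPases that unfold the substrate, and its lid removes the ubiquitin chain. Interferon induces the immunoproteasome subunits PSMB8, PSMB9 and PSMB10, which replace PSMB5, PSMB6 and PSMB7 in newly assembled cores and favour peptides suited to antigen presentation. In the mammary gland at this time the epithelium turns to large-scale synthesis of milk proteins.

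The tissue label was checked against epithelial markers. CSN2 (beta-casein) stood at 735, 12496 and 64463 TPM at −35 d, −7 d and +3 d, and LALBA, ELF5, CDH1, KRT8 and EPCAM were also listed in every library. These markers went both ways. LALBA and ELF5 were higher at −7 d than at −35 d. CDH1 (8.79, 1.97 and 2.91 TPM), KRT8 (297, 157 and 164 TPM) and EPCAM (498, 293 and 210 TPM) were lower. KRT18 and KRT19 were not analysed here. Because 5 genes with more than 1% of a library held 0.348%, 4.13% and 22.6% of the clean tags at −35 d, −7 d and +3 d, less of the +3 d library was left for the other genes. TMM scaling, which discounts such genes, raised the log2 ratio of each gene with tags in both libraries by 0.19 in stage I, 0.31 in stage II and 0.50 for +3 d against −35 d. The median log2 ratio of all genes tested was −0.22, −0.30 and −0.56 in these comparisons, and the values of the proteasome genes are read beside those medians.

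Proteasome transcripts differed little between −35 d and −7 d and were lower at +3 d. Their summed level was 3034 TPM at −35 d, 2947 TPM at −7 d and 1592 TPM at +3 d. The lowest of the 3 levels was at +3 d for 36 of the 40 genes, and the highest was at −35 d for 23, at −7 d for 15 and at +3 d for 2, PSMC1 and PSMD4. The median log2 ratio of the 40 genes was −0.12 in stage I, −1.02 in stage II and −0.96 for +3 d against −35 d. Under TMM scaling the medians were 0.07, −0.71 and −0.47, so the sign of the stage I median depended on the scaling and that of the other medians did not.

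A gene was called downregulated or upregulated at an FDR of at most 0.001 in the Audic-Claverie test and a change of at least 2-fold, the thresholds of the study. In stage I, 1 of the 40 genes was called downregulated (2.50%), beside 6.45% of all genes tested, and none was called upregulated, beside 2.62%. In stage II, 21 genes were called downregulated (52.5%), beside 10.4% of all genes, and none upregulated, beside 3.12%. For +3 d against −35 d, 20 genes were called downregulated (50%), beside 16.3% of all genes, and none upregulated, beside 2.33%. Of the comparisons with +3 d, 18 genes were called in both, 3 in stage II but not against −35 d, and 2 against −35 d but not in stage II, and 17 of the 40 were called in no comparison.

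These calls compare libraries and not time points, since no replicate library exists. At an unadjusted p under 0.05 in the same test, 7, 1 and 0 genes were higher in stage I, stage II and +3 d against −35 d, and 15, 34 and 34 were lower (37.5%, 85% and 85%). Of all genes tested, 15.5%, 13.1% and 9.70% were higher and 31.2%, 36.4% and 46.6% lower at that level, so the stage I count of the proteasome genes was near the background. When edgeR's exact test was run with biological variation set to a coefficient of 0.2, none of the 40 genes was called in any comparison, beside 54, 160 and 156 of all genes tested. At an unadjusted p under 0.05 in that test, 1, 24 and 23 of the 40 were lower (2.50%, 60% and 57.5%), beside 11.2%, 15.0% and 23.3% of all genes, and 1, 0 and 0 were higher, beside 4.19%, 5.10% and 3.49%. Under TMM scaling 0 genes were downregulated in stage I (beside 3.90% of all genes), 6 in stage II (15% of the 40, beside 4.90%) and 7 against −35 d (17.5%, beside 4.94%). The upregulated genes under TMM scaling were 1, 0 and 0, beside 4.22%, 5.87% and 6.23% of all genes. The genes called in stage II under TMM scaling were PSMA2, PSMA3, PSMA5, PSMB2, PSMD14 and PSMG1, and those against −35 d were PSMA2, PSMB2, PSMD3, PSMD10, PSMD14, PSME1 and PSMG1, so the other calls of proteasome genes in these comparisons were lost under that scaling. Among better counted genes, those averaging 5 TPM or more, which include 39 of the 40, the background of downregulated genes was 8.07% in stage I, 14.4% in stage II and 22.0% against −35 d. In stage II, 16 of the 40 genes had a log2 ratio within 0.2 of −1, the 2-fold threshold.

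**Figure D1:**
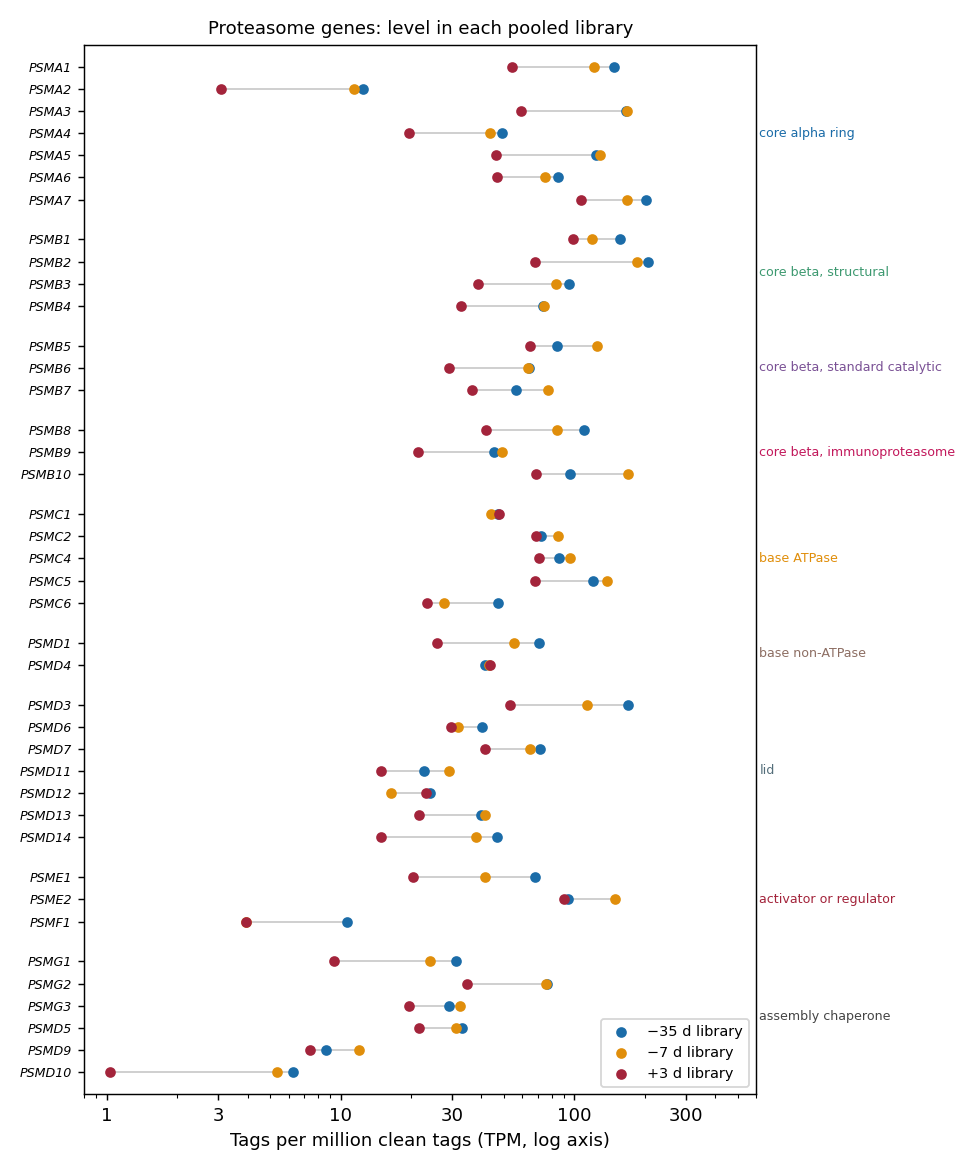
Level of each of the 40 proteasome genes in the 3 pooled libraries, in TPM on a log axis, grouped by subcomplex (1 point per library, no replicates). The +3 d level is the lowest for 36 of the 40 genes, whereas the points of PSMC1 and PSMD4 nearly coincide.

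In the alpha ring, PSMA1 to PSMA5, 5 of its 7 genes, were downregulated in stage II and against −35 d, beside 10.4% and 16.3% of all genes. Under TMM scaling the counts were 3 and 1 of 7, beside 4.90% and 4.94% of all genes. PSMA3 stood at 167, 169 and 59.4 TPM at −35 d, −7 d and +3 d, a 2.84-fold lower level in stage II with a log2 ratio of −1.51 (95% counting interval −1.69 to −1.33). PSMA5 stood at 124, 129 and 46.2 TPM, with a stage II log2 ratio of −1.48 (−1.69 to −1.27). In both genes the libraries before calving had nearly equal levels and the +3 d library stood alone.

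PSMA2, counted with only 74, 64 and 18 tags, stood at 12.5, 11.4 and 3.08 TPM, and its stage II log2 ratio of −1.89 had the wide interval of −2.74 to −1.12. PSMA1 stood at 148, 121 and 54.4 TPM and PSMA4 at 48.9, 43.5 and 19.7 TPM, which gave stage II log2 ratios of −1.15 and −1.14. These genes were also lowest at +3 d. PSMA6 and PSMA7 did not reach 2-fold in either comparison, with stage II log2 ratios of −0.68 and −0.66. PSMA7 stood at 202, 168 and 107 TPM. The median of the alpha ring was −0.17 in stage I, −1.15 in stage II and −1.43 against −35 d.

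Among the structural beta subunits, which carry no proteolytic site, PSMB2, PSMB3 and PSMB4 were downregulated in stage II and against −35 d. Of all genes, 10.4% and 16.3% were downregulated in these comparisons. Under TMM scaling PSMB2 alone was called. PSMB2 had the most tags of the 40 genes at −35 d and stood at 207, 185 and 68.1 TPM, a 2.72-fold lower level in stage II (log2 ratio −1.44, interval −1.61 to −1.27). PSMB3 stood at 95.2, 83.7 and 38.7 TPM and PSMB4 at 73.7, 74.0 and 32.8 TPM. All 3 genes had their lowest level at +3 d. PSMB1 differed from them, with 157, 119 and 99.1 TPM and a stage II log2 ratio of −0.27 (−0.43 to −0.10), close to the median of all genes, and under TMM scaling that ratio was 0.04.

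The standard catalytic subunits were PSMB5, PSMB6 and PSMB7, which provide the chymotrypsin-like, caspase-like and trypsin-like activities. PSMB5 stood at 84.4, 125 and 64.7 TPM, so its highest level was at −7 d, and neither its stage I log2 ratio of 0.57 (0.40 to 0.74) nor its stage II log2 ratio of −0.95 (−1.14 to −0.77) reached 2-fold. PSMB6 stood at 63.9, 63.7 and 29.1 TPM and was downregulated in stage II (−1.13, interval −1.40 to −0.86) and against −35 d. PSMB7 stood at 56.1, 76.9 and 36.6 TPM and was downregulated in stage II alone (−1.07, interval −1.31 to −0.83).

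The immunoproteasome subunits PSMB8, PSMB9 and PSMB10 were downregulated in stage II, beside 10.4% of all genes. Under TMM scaling 0 of the 3 were called, beside 4.90% of all genes. PSMB8 stood at 110, 84.8 and 42.1 TPM, and its log2 ratio was −0.37 (−0.55 to −0.20) in stage I, not a call, and −1.01 (−1.24 to −0.78) in stage II. PSMB9 stood at 45.1, 49.0 and 21.4 TPM, with a stage II log2 ratio of −1.20 (−1.51 to −0.89). PSMB10 had a different course, with 96.0, 170 and 68.8 TPM. Its stage I log2 ratio of 0.83 (0.67 to 0.98) was the highest of the 40 genes and fell short of 2-fold, but it passed under TMM scaling at 1.02. Its stage II log2 ratio was −1.31 (−1.48 to −1.14). Against −35 d, PSMB8 and PSMB9 were downregulated, beside 16.3% of all genes, and PSMB10 was not (−0.48).

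**Figure D2:**
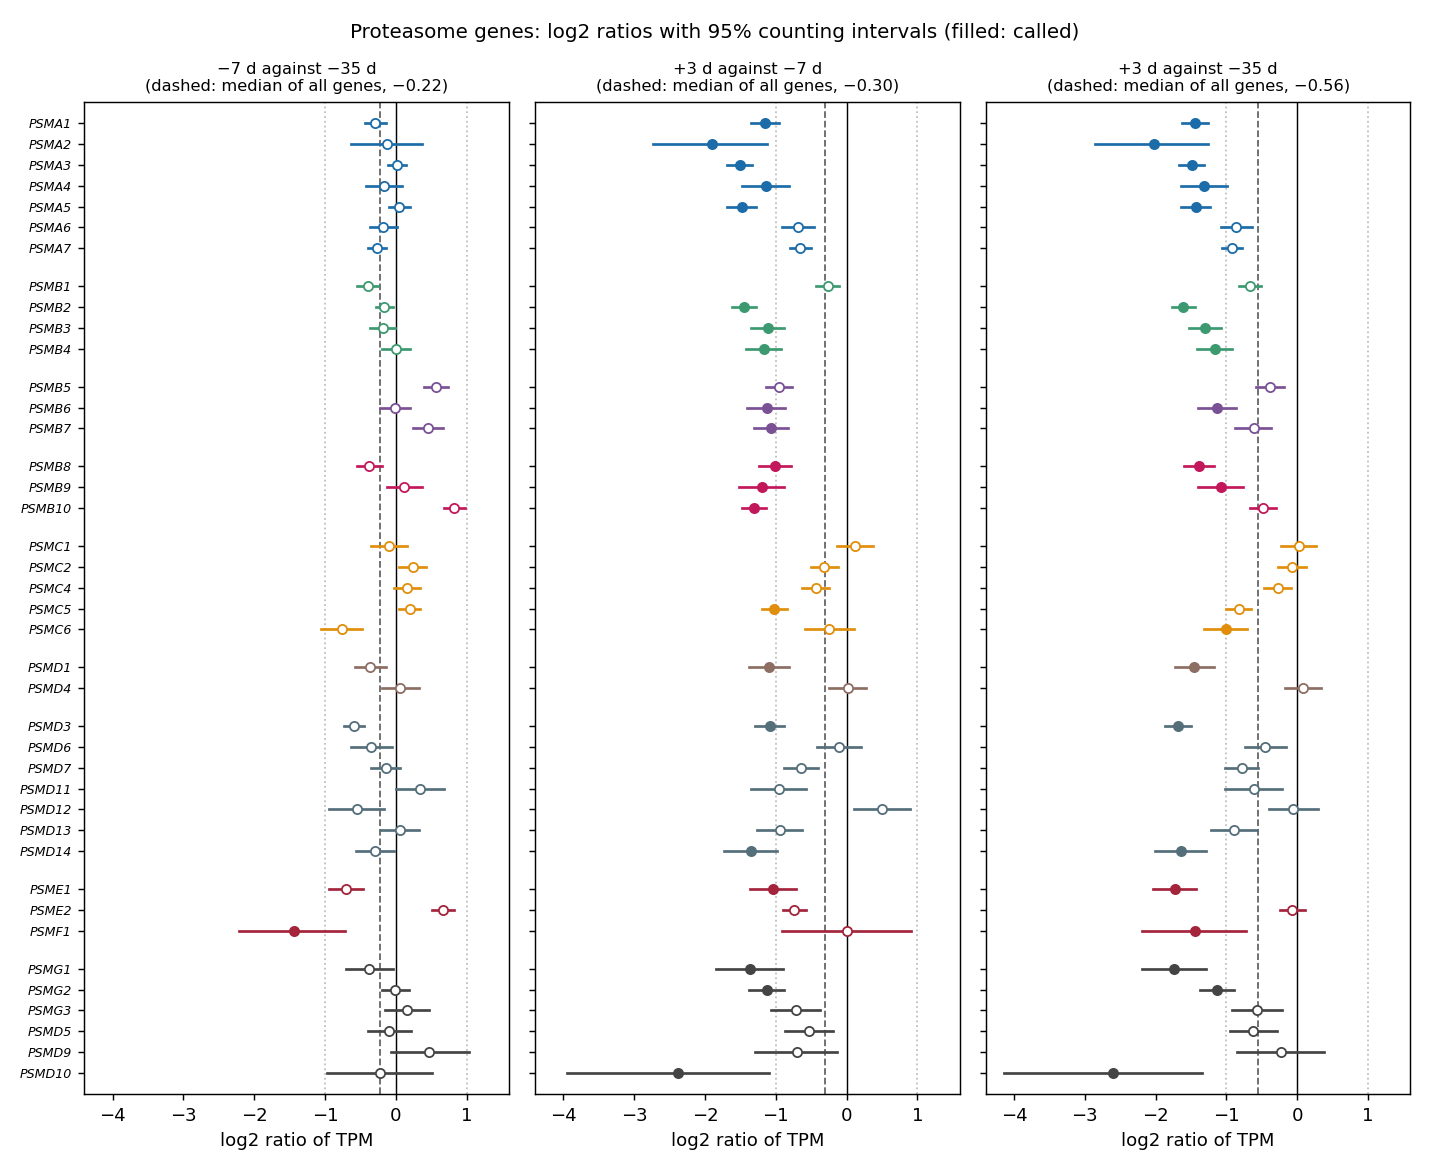
Log2 ratio of each proteasome gene in stage I (left), stage II (middle) and +3 d against −35 d (right), with 95% counting intervals and filled points for called genes. In stage I the single filled point is PSMF1. In stage II the filled points lie mostly in the alpha and beta rings (13 of 17 core genes), with 1 among the 5 ATPases. Of all genes, 10.4% were downregulated in stage II.

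The share of each immunoproteasome subunit within its catalytic pair does not depend on any scaling of the libraries. PSMB8 made up 56.5% of the tags of PSMB8 and PSMB5 at −35 d (95% Wilson interval 53.6 to 59.4), 40.3% at −7 d (37.6 to 43.2) and 39.4% at +3 d (35.7 to 43.3). The −35 d share stood above both others, and its intervals did not overlap theirs. By Fisher's exact test, two-sided and adjusted over the 9 tests of shares, the difference of −16.2 percentage points in stage I had an adjusted p of 4.87e-14, and the stage II difference had an adjusted p of 0.776.

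PSMB9 made up 41.4%, 43.5% and 42.4% of the tags of PSMB9 and PSMB6, and its adjusted p in Fisher's exact test was 0.692 in stage I and 0.776 in stage II. PSMB10 made up 63.1% (59.9 to 66.2), 68.9% (66.4 to 71.3) and 65.3% (61.4 to 68.9) of the tags of PSMB10 and PSMB7. Its stage I difference of 5.77 percentage points had an adjusted p of 0.0146 in Fisher's exact test, and its stage II difference 0.27. The pairs thus moved in different directions in stage I. The tags of the 3 immunoproteasome subunits together made up 55.1%, 53.3% and 50.4% of those of all 6 catalytic subunits.

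Summed levels of leukocyte markers were lower at −7 d than at −35 d, as was the PSMB8 share, but not the PSMB9 or PSMB10 share. Within the PSMB8 pair the stage I log2 ratio was −0.37 for PSMB8 and 0.57 for PSMB5. Leukocyte markers did not stand alone. Sums of fibroblast, smooth muscle and myoepithelial, endothelial and adipocyte markers were also lower at −7 d, as were CDH1, KRT8 and EPCAM. Those of epithelial and proliferation markers were higher. In stage I 2 of 10 T cell, 4 of 8 macrophage, 0 of 4 pan-leukocyte and 0 of 4 B and plasma cell markers were downregulated, beside 6.45% of all genes. The 10 T cell markers, all found in the tables and none at 0, summed to 256, 164 and 150 TPM, with CD3E the most abundant at 48.5, 44.3 and 36.4 TPM. The macrophage markers found (8 of 10, none at 0) summed to 756, 402 and 581 TPM, led by CTSS at −35 d and −7 d and by C1QB at +3 d. CTSS alone stood at 432 TPM at −35 d and 151 TPM at −7 d. Of the 8 markers, 7 had a stage I log2 ratio below 0, but those of C1QB and C1QA were only −0.08 and −0.07. CD14 had one of 0.58. The pan-leukocyte markers found (4 of 5, none at 0), led by LAPTM5, summed to 278, 188 and 290.1 TPM, and those of B and plasma cells (4 of 8, none at 0) to 302, 163 and 175 TPM, mostly IGJ. The sums of macrophage, pan-leukocyte and B and plasma cell markers were higher at +3 d than at −7 d, and that of T cell markers was lower. The PSMB8 share was 40.3% at −7 d and 39.4% at +3 d. In pooled tissue, fewer cells of a type and less RNA per cell cannot be told apart, and the part of these markers in the result was not tested.

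Of the 5 base ATPases found, 1 was downregulated in stage II, PSMC5, and 1 against −35 d, PSMC6, beside 10.4% and 16.3% of all genes. Under TMM scaling neither was called. PSMC1 stood at 47.0, 43.8 and 47.7 TPM, with a stage II log2 ratio of 0.12 (−0.13 to 0.38). PSMC2 stood at 72.0, 84.9 and 68.4 TPM and PSMC4 at 85.7, 95.7 and 70.8 TPM, with stage II log2 ratios of −0.31 and −0.43. The +3 d level of PSMC1 was the highest of its 3 levels, and those of PSMC2 and PSMC4 were the lowest of theirs.

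PSMC5 stood at 121, 138 and 68.1 TPM and was just past the threshold in stage II (−1.02, interval −1.20 to −0.85). PSMC6 had its step before calving, at 47.0, 27.7 and 23.4 TPM, with a log2 ratio of −0.76 in stage I and −0.24 in stage II, and at +3 d it was 2.01-fold lower than at −35 d. The median of the 5 ATPases was −0.31 in stage II and −0.28 against −35 d, near or above the median of all genes. Under TMM scaling the former became −0.0037, and the latter turned to 0.22.

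The base scaffold PSMD1 was downregulated at +3 d, with 70.7, 55.1 and 25.8 TPM and a stage II log2 ratio of −1.09 (−1.38 to −0.81). The ubiquitin receptor PSMD4 stood at 41.4, 43.3 and 43.8 TPM, and its log2 ratio of 0.02 had an interval of −0.24 to 0.28. The intervals of these 2 base subunits did not overlap.

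In the lid, 2 of 7 genes were called in stage II and the same count against −35 d, beside 10.4% and 16.3% of all genes. Under TMM scaling 1 was called in stage II, PSMD14, and 2 against −35 d. PSMD14, the deubiquitinase of the lid, stood at 46.5, 37.9 and 14.9 TPM, 2.55-fold lower in stage II (log2 ratio −1.35, interval −1.73 to −0.98). PSMD3, a scaffold subunit, stood at 170, 113 and 53.2 TPM and was 3.20-fold lower at +3 d than at −35 d (log2 ratio −1.68). Both genes had their highest level at −35 d and their lowest at +3 d, and neither stage I difference was a call.

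PSMD7, which pairs with PSMD14, stood at 71.5, 64.7 and 41.6 TPM, with a stage II log2 ratio of −0.64. PSMD11 and PSMD13 had stage II log2 ratios of −0.96 and −0.94, and PSMD6 one of −0.10, none of them a call. PSMD12 was the only one of the 40 genes with a stage II interval wholly above 0, at 24.2, 16.5 and 23.3 TPM and a log2 ratio of 0.50 (0.11 to 0.90), which was not a call. The lid thus ranged from −1.35 to 0.50 in stage II, with a median of −0.94.

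The core made up a smaller part of the proteasome tags at +3 d. Of the tags on core and regulatory particle genes together, those of the core were 66.4% at −35 d (95% Wilson interval 65.6 to 67.1), 68.0% at −7 d (67.2 to 68.7) and 60.5% at +3 d (59.4 to 61.5). The ATPases held 12.3%, 13.2% and 17.5% of the tags of all 40 genes. These shares need no library scaling, but they were chosen after the values had been seen and carry no test. The regulatory particle genes here lack PSMC3, PSMD2, PSMD8 and any subunit outside the naming rule. The core share is thus one of the analysed genes and not of the whole particle. Summed, the 17 core genes stood at 1776, 1748 and 837 TPM and the 14 regulatory particle genes at 900.2, 823 and 547 TPM, and in stage II 13 core genes and 4 regulatory particle genes were called downregulated. All genes stood at 10.4%. Under TMM scaling these counts were 4 and 1, beside 4.90% of all genes.

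**Figure D3:**
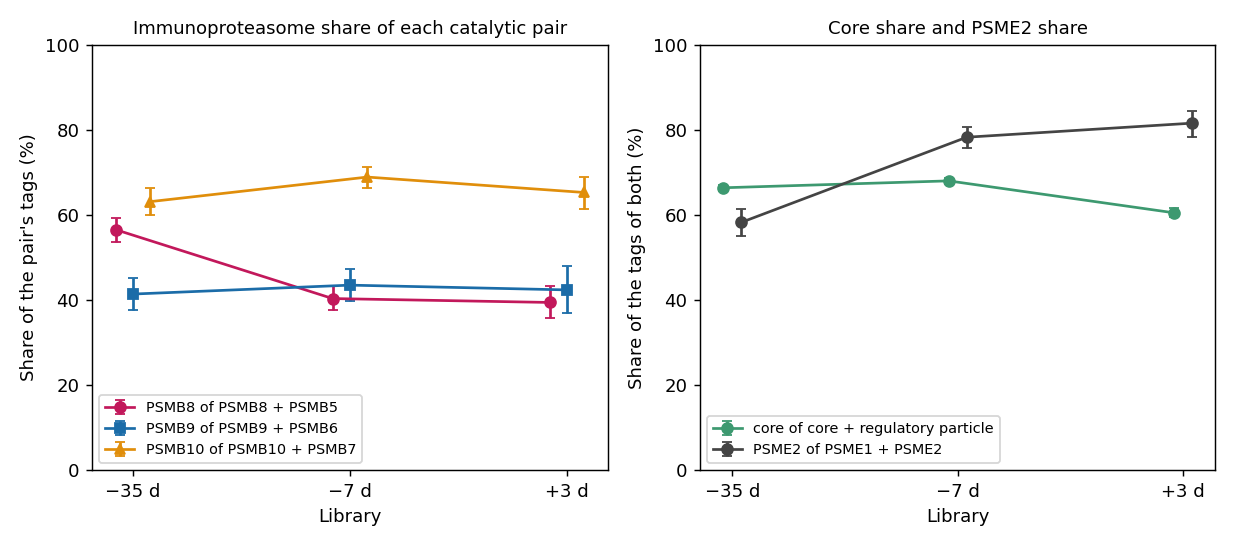
Left, tags of each immunoproteasome subunit as a percent of the tags of its catalytic pair; right, core tags as a percent of core and regulatory particle tags, and PSME2 tags as a percent of PSME1 and PSME2 tags. Bars are 95% Wilson intervals in each of the 3 libraries: the PSMB8 share is 56.5% at −35 d and 40.3% at −7 d, and the core share is 68.0% at −7 d and 60.5% at +3 d.

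PSME1 and PSME2 form the interferon-induced activator ring that can cap the core in place of the regulatory particle, and their transcripts took different courses. PSME1 stood at 67.6, 41.7 and 20.4 TPM and was downregulated in stage II (−1.03, interval −1.36 to −0.71) and 3.32-fold lower at +3 d than at −35 d. PSME2 stood at 94.4, 150 and 90.0 TPM, highest at −7 d, with a stage I log2 ratio of 0.67 (0.51 to 0.82) and a stage II log2 ratio of −0.74 (−0.90 to −0.58), neither a call. PSME2 held 58.2%, 78.2% and 81.6% of the tags of both genes in the −35 d, −7 d and +3 d libraries. This share was also chosen after its values were seen.

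PSMF1, an inhibitor of the core particle, was the only gene called in stage I, with 63, 22 and 23 tags or 10.7, 3.93 and 3.93 TPM. Its stage I log2 ratio was −1.44 (−2.21 to −0.72) and its level at −7 d equalled that at +3 d. It was also downregulated against −35 d, at −1.44. Under TMM scaling neither was a call, at −1.25 and −0.94.

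In the RefSeq gene order of the assembly ARS-UCD2.0, PSMB8, TAP1 and PSMB9 are direct neighbours, and PSME2 and PSME1 are separated by EMC9 alone. Despite that proximity, PSMB8 and PSMB9 differed in stage I, with log2 ratios of −0.37 and 0.12 and intervals that did not overlap, and so did PSME1 and PSME2, with −0.70 and 0.67. TAP1, which encodes a subunit of the peptide transporter, stood at 8.12, 2.50 and 1.37 TPM and was downregulated in stage I (log2 ratio −1.70). Under TMM scaling its ratio was −1.51, still past 2-fold, but it missed the FDR threshold.

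The assembly chaperones were downregulated in part. PSMG1 and PSMG2, which together build the alpha ring, stood at 31.3, 24.1 and 9.41 TPM and at 76.1, 75.8 and 34.7 TPM, with stage II log2 ratios of −1.36 (−1.84 to −0.90) and −1.13 (−1.37 to −0.88). PSMG3, which acts at the same step, had a stage II log2 ratio of −0.72 and was not called. PSMD10, a chaperone of the ATPase ring, stood at 6.26, 5.36 and 1.03 TPM, from only 37, 30 and 6 tags. Its stage II log2 ratio of −2.39 was the lowest of the 40 genes, with an interval of −3.94 to −1.10. Under TMM scaling that ratio was −2.08, still past 2-fold, but not a call. The other ATPase ring chaperones among the 40 genes, PSMD5 and PSMD9, had stage II log2 ratios of −0.53 and −0.70, neither a call. POMP, which assists the assembly of the beta ring, stood at 108, 104 and 69.1 TPM and was not called in any comparison, with a stage II log2 ratio of −0.59.

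Partners of the proteasome outside the naming rule were listed separately. Of 18 such genes, 12 were in the tables, and 2 were downregulated in stage II, TXNL1 (29.1, 28.3 and 11.3 TPM, log2 ratio −1.32) and PAAF1 (−1.25). Against −35 d, 3 were downregulated, with USP14, a deubiquitinase of the regulatory particle, the lowest at 25.5, 16.8 and 8.55 TPM (−1.58). None was called in stage I. The medians of the 12 genes were −0.10, −0.63 and −0.78 in stage I, stage II and +3 d against −35 d, and 0.09, −0.32 and −0.28 under TMM scaling. Their calls were 0, 2 and 3 of 12, beside 6.45%, 10.4% and 16.3% of all genes, and under TMM scaling 0, 1 and 1.

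NFE2L1, the transcription factor that induces proteasome genes when proteasome activity is limiting, stood at 212, 120 and 110 TPM, and its difference was not a call in stage I (log2 ratio −0.83), in stage II (−0.12) or against −35 d (−0.95). Of the 10 listed regulators of proteasome genes 7 were in the tables. NFE2L2, a related factor of the oxidative stress response, stood at 151, 68.7 and 64.2 TPM and was downregulated in stage I (−1.14) and against −35 d (−1.24), but not under TMM scaling. MAFF, a small partner of these factors, was upregulated in stage II (1.19, from 8.05 to 18.3 TPM). For NFE2L1 and NFE2L2 most of the difference thus lay before calving. Of the ubiquitin list UBA1 alone was in the tables, and this activating enzyme stood at 87.6, 60.3 and 37.8 TPM and was downregulated against −35 d (−1.21), but not under TMM scaling.

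The list of interferon signalling and antigen presentation had 14 of its 22 genes in the tables, TAP2 under 2 accessions, which gave 15 entries of which 13 had a tag in either library of stage II. Of these entries 1, 2 and 4 were downregulated and none upregulated in stage I, stage II and +3 d against −35 d, beside 6.45%, 10.4% and 16.3% of all genes downregulated. Its medians were −0.43, −0.87 and −1.11. With TMM scaling the medians were −0.24, −0.56 and −0.61, with 0, 2 and 2 genes downregulated and 1 upregulated in stage II. B2M, the light chain of class I molecules, stood at 4209, 4366 and 2285 TPM and was not called. ERAP2, which trims peptides for presentation, was downregulated in stage II (17.3, 14.7 and 5.13 TPM, log2 ratio −1.51), and of the called genes with over 3 tags in both libraries TAP1 was the lowest against −35 d (−2.57). IRF1, a transcription factor induced by interferon, stood at 5.58, 6.08 and 3.42 TPM and was not called.

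Other multisubunit complexes were compared in the same way. In stage II the median log2 ratio was −0.64 for 51 cytosolic ribosomal protein genes, −0.65 for 68 mitochondrial ribosomal protein genes and −0.93 for 8 genes of the chaperonin CCT, which folds actin and tubulin. Most of these genes were not called, and the downregulated genes were 5 of 51, 11 of 68 and 0 of 8, beside 21 of 40 for the proteasome and 10.4% of all genes. Under TMM scaling these counts were 3, 4 and 0, beside 6 of 40 and 4.90%. Among them RPS26 (log2 ratio −1.78) and MRPL15 (−1.94) were the lowest called. Against −35 d the downregulated genes were 21 of 51, 11 of 68 and 2 of 8, with RPL8 (−2.46), MRPL15 (−2.10) and CCT8 (−3.09) the lowest of those called with over 3 tags in both libraries. All genes stood at 16.3% in that comparison, and under TMM scaling the counts were 7, 4 and 1, beside 4.94%.

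In stage I the same complexes had medians of −0.09, 0.06 and 0.06, with 7, 1 and 1 genes downregulated and 2, 3 and 0 upregulated, beside 6.45% and 2.62% of all genes. With TMM scaling there were 5, 0 and 0 downregulated and 2, 4 and 0 upregulated. Of the mitochondrial ribosomal genes called, MRPS30 (1.46) was the highest. The lowest of those called in each complex were RPS13 (−1.66), MRPS33 (−1.08) and CCT8 (−1.17), of which MRPS33 and CCT8 were not called under TMM scaling. Under TMM scaling the stage I median of the cytosolic ribosomal genes turned to 0.10, while the stage II medians of the 3 complexes stayed below 0, at −0.33, −0.34 and −0.62.

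**Figure D4:**
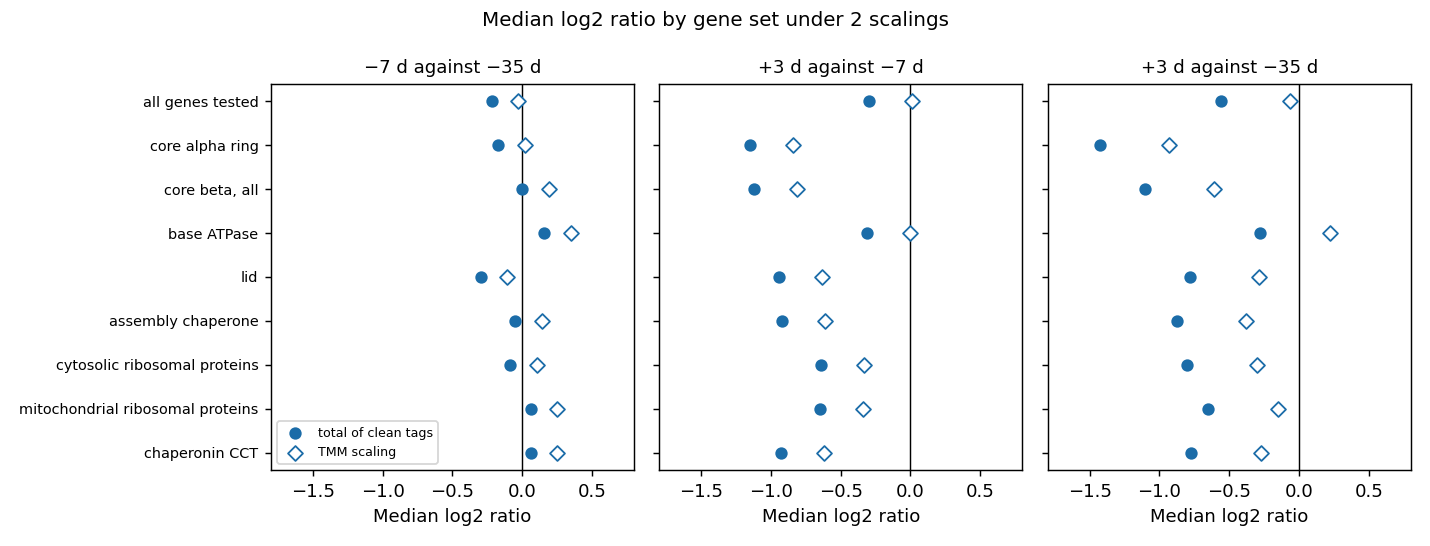
Median log2 ratio of all genes tested, of 5 proteasome subcomplexes and of 3 other complexes in the 3 comparisons, with the total of clean tags (filled circles) and with TMM scaling (open diamonds). In stage II the core alpha and beta rings have the lowest medians shown under either scaling (−1.15 and −1.12 with the total of clean tags), and the ATPases lie closest to all genes (−0.31 beside −0.30).

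Proliferation markers were also lower at +3 d than at −7 d. Their stage II median log2 ratio was −3.95, beside −1.02 for the proteasome genes and −0.30 for all genes tested. Of 10 markers 7 were in the tables, and they summed to 102, 132 and 27.2 TPM, with PCNA the most abundant at 68.6, 86.4 and 23.4 TPM and MCM5 at 0 at +3 d. In stage II 6 of the 7 were downregulated, beside 10.4% of all genes, and also 6 under TMM scaling, beside 4.90%. In stage I their median log2 ratio was 1.11, while that of the proteasome genes was −0.12. The stage I log2 ratio was above 0 for 5 of the 7 and below 0 for 2, MCM5 (−1.30) and TYMS (−1.17). BUB1 was called upregulated and TYMS downregulated, 1 each, beside 2.62% and 6.45% of all genes. Under TMM scaling 3 were upregulated and 0 downregulated, beside 4.22% and 3.90% of all genes. Fibroblast markers (5 of 5, none at 0) summed to 7618, 5728 and 8677 TPM, led by COL3A1 at −35 d and by COL1A1 in the other libraries, and smooth muscle and myoepithelial markers (5 of 5, none at 0) to 609, 374 and 687 TPM. Both sums were higher at +3 d than at −7 d. In stage II 1 of 5 fibroblast and 2 of 5 smooth muscle and myoepithelial markers were called upregulated, beside 3.12% of all genes. Under TMM scaling these counts were 1 and 3, beside 5.87% of all genes. KRT14 stood at 57.9 TPM at −7 d and 51.3 TPM at +3 d. The 6 epithelial markers went both ways in stage II. CSN2 and LALBA were upregulated and ELF5, a transcription factor of the secretory epithelium, was downregulated, with 271, 353 and 155 TPM and a stage II log2 ratio of −1.19, a call lost under TMM scaling. CDH1, KRT8 and EPCAM were not called in stage II, with log2 ratios of 0.56, 0.06 and −0.48. In stage I CDH1 was downregulated (−2.16), also under TMM scaling. Against −35 d CDH1 and EPCAM were downregulated (−1.60 and −1.24), but not called under TMM scaling (−1.10 and −0.75). The part of the proliferation markers, of ELF5 and of the cell makeup in the lower proteasome levels was not tested.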

How the data were processed

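Mammary tissue of 18 cows was sequenced as 3 pooled libraries of 21-base NlaIII tags. The deposited counts are unambiguous clean tags per gene: the authors removed adaptor, short, ambiguous and single-copy tags and matched the rest, with at most 1 mismatch, to tags of bovine gene sequences (UMD 3.1). The deposited TPM values divide those counts by the clean tags of the library, summed here from the deposited tag copy numbers, and were recovered within 0.0050 TPM. Gene counts covered 40.5%, 41.4% and 53.0% of the clean tags at −35 d, −7 d and +3 d. A summary of tag statistics was not used.

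Symbols were taken from the gene descriptions. All 40 accessions carried the same symbol in the RefSeq table of the assembly ARS-UCD2.0, which served for gene names and neighbours only. No sequences were used here. The members and the gene lists were chosen with earlier results of these data known. Genes were compared with the Audic-Claverie test (2 times the smaller tail, the upper tail without the observed count), Benjamini-Hochberg adjustment over all genes with a tag in either library (8967, 8784 and 8988 genes in stage I, stage II and +3 d against −35 d), a threshold of 0.001 and 2-fold, and 0 TPM set to 0.01 TPM. Intervals of ratios are exact binomial intervals of the counts at 95%. A count of 0 allows up to 3 tags, about 0.507, 0.536 and 0.513 TPM in the 3 libraries. Tags amplified by PCR are not independent molecules, so all intervals, limits and p-values cover counting error only.

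Shares were compared with Fisher's exact test over 9 tests. The 3 tests planned for PSME1 and PSME2 against PSME3 were not run, as PSME3 was not analysed here. Values are given in every library for each member called in any comparison and for the catalytic, immunoproteasome and activator genes. Of other members extremes or chosen examples are given, and of other lists the called genes with the largest ratios in each direction among those with over 3 tags in both libraries, plus POMP, NFE2L1, IRF1, TAP1 and B2M. Some genes that this rule names are not reported here. RPS6K kinases were kept out of the ribosomal list after symbols were seen. Alternatives were TMM (edgeR 4.0.16) and DESeq2 1.42.0 size factors in R 4.3.3, other totals, filters, thresholds and tests. The calculation used Python 3.11.15, scipy 1.17.1 and pandas 2.3.3 and was tested on simulated counts.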

Additional observations from a re-analysis of the deposited data

How the results depend on the processing

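The calls rested on the scaling and on counting error as the only error. With TMM or DESeq2 size factors, 1 gene (PSMB10) was upregulated and 0 downregulated in stage I, and 6 were downregulated in stage II (PSMA2, PSMA3, PSMA5, PSMB2, PSMD14 and PSMG1) and 7 against −35 d (PSMA2, PSMB2, PSMD3, PSMD10, PSMD14, PSME1 and PSMG1). With totals that leave out the genes over 1% of a library, 6 and 12 were downregulated in the latter comparisons, beside 4.90% and 6.98% of all genes. At 3-fold, 0, 2 and 7 were downregulated, beside 2.45%, 3.55% and 5.94% of all genes. When biological variation was set to a coefficient of 0.2, the counts were 0, 0 and 0, beside 0.602%, 1.82% and 1.74% called of all genes in either direction, a share so low that 0 of 40 says little about these genes. The median of the 40 genes was 0.075, −0.71 and −0.47 with TMM, 0.078, −0.69 and −0.45 with DESeq2, and −0.060, −0.71 and −0.60 with the reduced totals, in stage I, stage II and against −35 d, and −0.93 against −35 d with a minimum mean of 5 TPM. Under TMM scaling the direction turned for 10, 3 and 8 of the 40 genes in stage I, stage II and against −35 d. Tallied over all alternatives only for each gene in the comparison that called it, and for the catalytic, immunoproteasome, activator and inhibitor genes in every comparison, it turned for PSMB6 in stage I (0.18 with TMM, 0.19 with DESeq2, 0.050 with reduced totals), for PSMB5 (0.11 and 0.13 with TMM and DESeq2), PSMB10 (0.016 and 0.034) and PSME2 (0.43, 0.45 and 0.30 with reduced totals) against −35 d, and for PSMF1 in stage II (−0.0010 with 0.5 tags added). Fisher's exact test, 0.5 tags added and, chosen after seeing the data, tails that include the observed count, which had been coded first, changed no call among the 40 genes. The minimum of 5 TPM removed PSMD10 alone, leaving 20 and 19 downregulated. No paired analysis was possible because each time point is 1 library, and none could be left out. Tags limit PSMD10, PSMA2 and PSMF1 most, with 6, 18 and 22 at their lowest.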
